A study of Mus musculus with 12 samples.

Results

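The genes of oxidative phosphorylation were taken as the protein-coding genes of the count table whose symbols begin with Nduf, Uqcr, Atp5, Cox4 to Cox8, mt-Nd, mt-Co, mt-Cyt or mt-Atp, plus Sdha to Sdhd and Cyc1. They numbered 107 of 52636 listed identifiers, 94 nuclear and 13 of the mitochondrial genome. Of these, 86 nuclear and 10 mitochondrial-genome genes had enough counts for the test. Those left out for low counts were mt-Nd3, mt-Nd4l, mt-Atp8, Cox4i2, Cox6b2, Cox7b2, Cox8b, Cox8c, Ndufa4l2, Atp5g2 and Atp5l. The nuclear genes include 8 Ndufaf genes, whose products help to assemble complex I and are not subunits of it. Ndufa4 and Ndufa4l2 are counted with complex IV despite their names.

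Oxidative phosphorylation is the process by which mitochondria pass electrons along 4 protein complexes of their inner membrane (I to IV) and use the resulting proton gradient to make ATP at complex V, the ATP synthase. Most subunits are encoded in the nucleus and imported, while a few at the core of complexes I, III, IV and V are encoded and transcribed in the mitochondrion itself. Complex II has nuclear subunits only. In macrophages and microglia the pathway is known for changing with activation state.

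RNA was sequenced from primary microglia, the immune cells that live in the brain, grown from WT C57BL/6 pups aged P1-2. They were shaken off mixed glial cultures, and each well received 50000 cells and 2.5 ng of CSF1, a growth factor of these cells. Cells received 5 µg of full-length neurofilament light chain (FL-NfL), 5 µg of coiled-coil NfL (CC-NfL) or vehicle for 24 h, with 4 libraries per group. Replicate numbers 1 to 4 are labelled batches that each hold 1 library of every group, and no source says that they are separate cultures or litters, so p-values measure the spread between these libraries, which may be technical. All groups share the genotype, the culture and CSF1, and no source used here says how the proteins were made or what the vehicle held.

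The libraries held 20162427 to 31048044 counts. Levels are CPM, counts scaled to a common library size, with TMM factors applied, and changes are log2 fold changes with the standard error (SE) of edgeR's quasi-likelihood test, called at an adjusted p (Benjamini-Hochberg over all 14687 tested genes) under 0.05. The 10 microglial markers together held 9532 to 11189 CPM in FL-NfL, 10705 to 11948 CPM in CC-NfL and 10134 to 12379 CPM in Vehicle libraries, and none was at 0. Markers of other cells of mixed glial cultures were present at low levels. Astrocyte markers (9 genes) summed to 23.8 to 37.5 CPM in FL-NfL, 24.1 to 52.3 CPM in CC-NfL and 26.0 to 57.8 CPM in Vehicle libraries, oligodendrocyte lineage markers (10) to 95.5 to 125 CPM in FL-NfL, 115.5 to 202 CPM in CC-NfL and 123 to 189 CPM in Vehicle libraries, and neuronal markers (9) to 8.83 to 28.5 CPM in FL-NfL, 14.6 to 44.1 CPM in CC-NfL and 17.8 to 59.2 CPM in Vehicle libraries. The 9 fibroblast and vessel markers stayed at or below 10.1 CPM in sum, with Cldn5 at 0 in every library and Rgs5 at 0 in all FL-NfL libraries. The oligodendrocyte marker Mobp was at 0 in all FL-NfL and all Vehicle libraries. Libraries FL-NfL 4 and Vehicle 2 resembled each other (r = 0.44 across genes, after group means were removed) more than the libraries of their own numbers.

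The levels of mitochondrial-genome genes in the table differed with the sequence they share with nuclear copies. The mouse nuclear genome carries old copies of mitochondrial DNA, and a read of 50 bases that fits both places cannot be assigned by its letters. The genes mt-Nd3, mt-Nd4l, mt-Co2, mt-Co3 and mt-Atp6 shared 98.0% to 100% of their 50-base stretches with annotated nuclear copies and had 0.145 to 3.93 CPM per kb of transcript in Vehicle libraries on average. The genes mt-Nd1, mt-Nd2, mt-Nd5, mt-Nd6 and mt-Cytb shared 0% to 8.19% and had 341 to 786 CPM per kb. In between lay mt-Co1 with 51.1% shared at 560 CPM per kb and mt-Nd4 with 62.2% shared at 305 CPM per kb. mt-Atp8 had 0.258 CPM per kb, and no stretch of it was found in an annotated copy. Only annotated transcripts were searched, so a copy of mt-Atp8 outside them would have been missed. The copies themselves collected few counts, 568 over all 12 libraries. Whether shared sequence set these levels was not tested. Stretches of a gene with few counts and of one with many are shown with their copies. The first 60 bases of mt-Co3 (chrM:8607-8666, GRCm38) are the same in its copy Gm28437 (chr1:24613912-24613971, minus strand), as are all 783 bases that align. A stretch of mt-Nd2 (chrM:4580-4639) and its copy Gm13339 (chr2:22590336-22590395, minus strand), the aligned 60 bases that differ most, differ at 4 bases, in capitals, and the 510 bases that align are 96.7% identical.
mt-Co3: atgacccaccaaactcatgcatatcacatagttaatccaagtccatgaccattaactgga
Gm28437: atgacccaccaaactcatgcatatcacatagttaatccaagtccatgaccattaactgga
mt-Nd2: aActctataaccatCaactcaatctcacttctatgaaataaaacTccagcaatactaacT
Gm13339: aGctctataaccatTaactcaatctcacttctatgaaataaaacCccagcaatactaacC

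**Figure D1:**
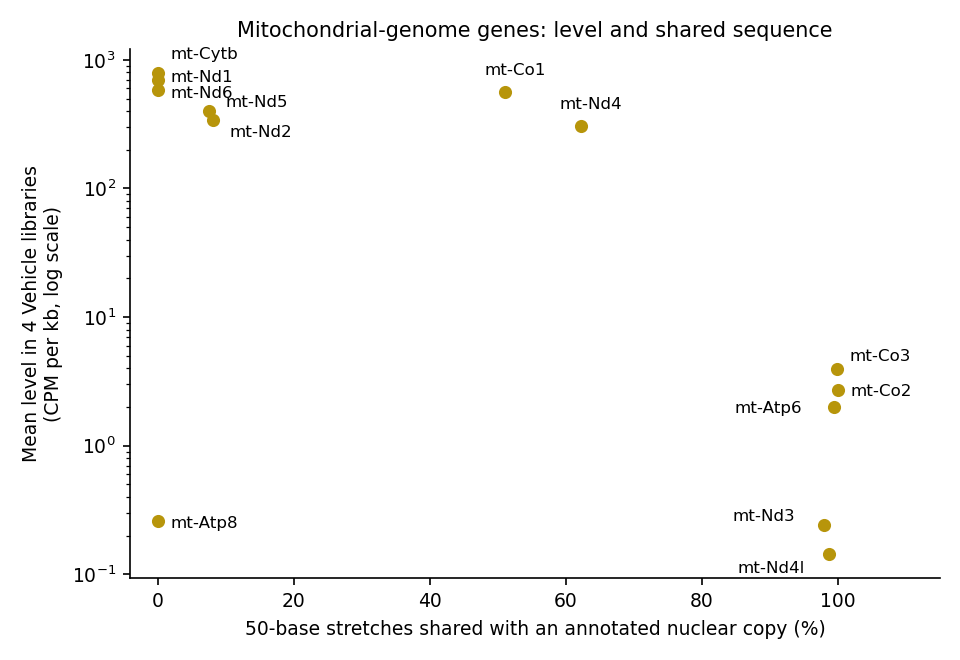
Mean level of each of the 13 mitochondrial-genome genes in the 4 Vehicle libraries (CPM per kb, log axis) against the share of its 50-base stretches found in an annotated nuclear copy. The 5 genes with 98.0% or more shared lie at or below 3.93 CPM per kb and mt-Atp8 lies with them, while the other 7 lie at 305 CPM per kb or above.

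The first comparison asked what FL-NfL did to microglial RNA. Summed levels of nuclear and mitochondrial-genome transcripts differed from vehicle in opposite directions. The 94 nuclear genes summed to 6656, 6212, 6410 and 6052 CPM in FL-NfL libraries 1 to 4, to 5238, 5758, 5637 and 5686 CPM in CC-NfL libraries and to 5339, 4627, 5527 and 4628 CPM in Vehicle libraries. Every FL-NfL library lay above every library of the other groups. The 13 mitochondrial-genome genes summed to 3425, 2182, 3897 and 3032 CPM in FL-NfL libraries, 4076, 2576, 4542 and 4082 CPM in CC-NfL libraries and 4138, 3778, 4291 and 4776 CPM in Vehicle libraries. The FL-NfL value was the lower one in each batch, but FL-NfL 3 lay above Vehicle 2. Per 100 counts of nuclear genes there were 49.4 ± 10.6 counts of mitochondrial-genome genes with FL-NfL, 68.7 ± 16.4 with CC-NfL and 85.0 ± 12.3 with vehicle (SD, n = 4 each). The mitochondrial-genome sums rest almost wholly on mt-Nd1, mt-Nd2, mt-Nd4, mt-Nd5, mt-Nd6, mt-Cytb and mt-Co1. The other genes of this genome averaged at most 3.93 CPM per kb with vehicle. The ratio is of deposited counts, and whether it matches that of transcripts in the cells was not tested. No test was made on these sums. In bulk RNA, fewer cells of a type and less RNA per cell cannot be told apart.

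**Figure D2:**
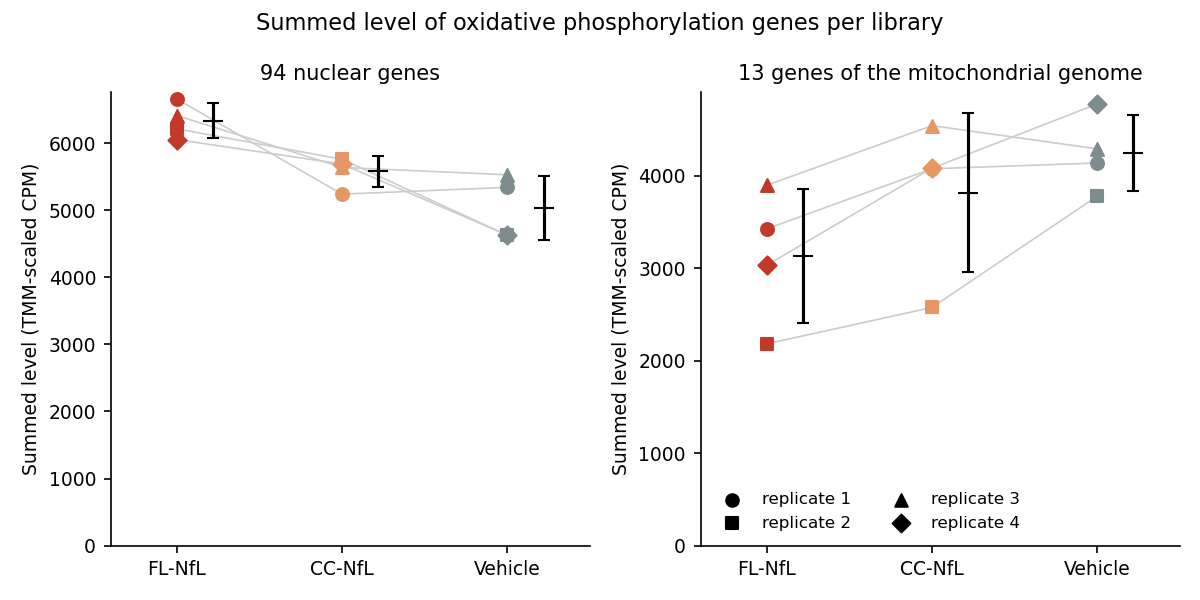
Summed TMM-scaled CPM of the 94 nuclear genes (left) and the 13 mitochondrial-genome genes (right) in each library, with grey lines joining libraries of 1 batch and black bars for the mean and SD of 4 libraries. Nuclear sums with FL-NfL (6052 to 6656) lie above all others, and mitochondrial sums with FL-NfL (2182 to 3897) are each the smaller one beside Vehicle in their batch. The mitochondrial sums rest almost wholly on mt-Nd1, mt-Nd2, mt-Nd4, mt-Nd5, mt-Nd6, mt-Cytb and mt-Co1.

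Gene by gene, 51 of 86 tested nuclear genes rose with FL-NfL, against 14.0% of all tested genes, and 0 fell, against 10.9%. Of 10 tested mitochondrial-genome genes 0 rose and 4 fell. The median log2 change was 0.33 over the nuclear genes (range −0.35 to 1.36), −0.57 over the mitochondrial-genome genes (range −0.91 to −0.07) and −0.02 over all tested genes. With upper-quartile scaling in place of TMM the split of all calls, 2062 higher and 1594 lower, became 1691 and 2003, and with GC and length trends removed 2302 and 1058. The nuclear median stayed above 0 and the mitochondrial one below 0 under both. With the replicate number as a block, 21.4% of all genes were called higher and 22.4% lower, and the counts were 59 nuclear genes higher, 2 nuclear genes lower (Ndufaf7, called lower also with DESeq2, its size factors or upper-quartile scaling, and Cox7a2l) and 7 mitochondrial-genome genes lower. For 49 nuclear genes the 4 FL-NfL libraries all lay above the 4 Vehicle libraries, against 14.5% of all genes, and for 1 (Ndufaf7) all below, against 11.4%. For 6 mitochondrial-genome genes all 4 lay below. Of the 51 genes that rose, 35 passed the test on leaving out any 1 of the 12 libraries. Without FL-NfL 4 and Vehicle 2 together, 26 nuclear genes were called higher and 0 mitochondrial-genome genes lower. Over all genes that fit called 793 higher and 544 lower. Of the 10 microglial markers 2 were called higher and 3 lower (4 and 3 with the block), and their part in these counts was not tested.

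**Figure D3:**
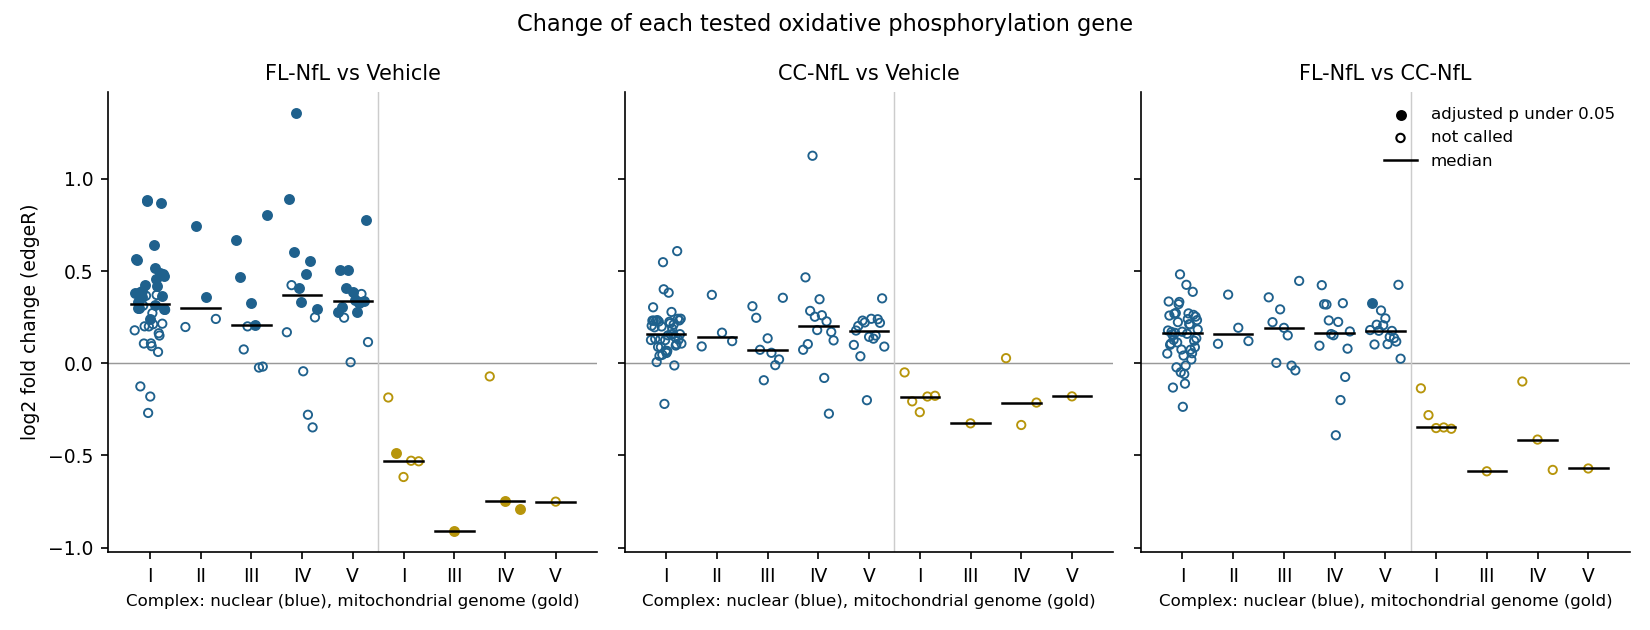
Log2 fold change of each tested gene by complex, nuclear genes in blue and mitochondrial-genome genes in gold, in 3 comparisons, with filled points for an adjusted p under 0.05 and a black line at the median. With FL-NfL 51 nuclear genes are called higher and 4 mitochondrial-genome genes lower, with CC-NfL none is called, and between the NfL forms 1 (Atp5b).

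Complex I, which takes electrons from NADH, had 22 of 36 tested nuclear subunits higher, against 14.0% of all tested genes. Ndufv2 (ENSMUSG00000024099, chromosome 17, 66078638 to 66101559, GRCm38), an iron-sulfur subunit of the arm that oxidises NADH, had 53.4, 50.2, 53.0 and 51.2 CPM in FL-NfL libraries, 39.4, 45.0, 46.0 and 46.2 CPM in CC-NfL libraries and 38.2, 34.4, 40.4 and 36.4 CPM in Vehicle libraries. The FL-NfL libraries lay above all others, and the log2 change against vehicle was 0.47 ± 0.07 (SE; edgeR adjusted p = 0.0012). Ndufb9 and Ndufb8, accessory subunits of the membrane arm, rose by 0.46 ± 0.07 (adjusted p = 0.00177) and 0.52 ± 0.09 (adjusted p = 0.00206). Ndufa9, an accessory subunit near the quinone site, averaged 96.9 ± 3.41 CPM with FL-NfL and 73.9 ± 6.49 CPM with vehicle (SD, n = 4 each), a log2 rise of 0.39 ± 0.07 (adjusted p = 0.0029). Reads of Ndufb9 could be shared, since 19.5% of its exon bases overlap a gene on the same strand. Among the 7 nuclear core subunits that carry the electrons, a grouping made after values were seen, 3 rose (Ndufv1, Ndufv2 and Ndufs8) and the median change was 0.21. Ndufs1, the largest iron-sulfur subunit, changed by 0.06 ± 0.06 (adjusted p = 0.438). The accessory subunits had 19 of 29 higher and a median of 0.36. No test of the difference between these groups was made. The 22 rises ran from 0.24 in Ndufb10 to 0.87 in Ndufs5, both accessory. In Ndufs5, 31.1% of the 50-base stretches occur in another gene. The accessory subunits not called ran from −0.18 in Ndufb11 and −0.13 in Ndufa6, whose adjusted p were 0.565 and 0.485, to 0.37 in Ndufc1 (0.0961). With the block Ndufb5 (0.0213) and Ndufab1 (0.0324) passed as well.

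The complex I assembly factors had a median change of 0.28 with FL-NfL, and 7 of 8 changes were above 0. Of 8 tested, 3 were called higher and 0 lower, against 14.0% and 10.9% of all tested genes. Ndufaf5, an enzyme that modifies the subunit Ndufs7, had 7.33, 8.28, 8.66 and 7.73 CPM in FL-NfL libraries, 5.31, 6.24, 7.37 and 6.53 CPM in CC-NfL libraries and 4.21, 4.27, 3.98 and 4.93 CPM in Vehicle libraries. Both NfL groups lay wholly above vehicle, and with FL-NfL the log2 change was 0.88 ± 0.13 (edgeR adjusted p = 0.00111). Ndufaf6 rose by 0.88 ± 0.23 (adjusted p = 0.0169, but 0.0544 without FL-NfL 2), at a low level of 3.98 ± 0.925 CPM with FL-NfL and 2.15 ± 0.429 CPM with vehicle. Ndufaf3 rose by 0.42 ± 0.13 (adjusted p = 0.0325) and was lost without FL-NfL 2 (0.0798), FL-NfL 4 (0.0928), Vehicle 1 (0.0630), Vehicle 2 (0.0822) or Vehicle 4 (0.0809). Ndufaf7, a methyltransferase of mitochondria that is named here after its values were seen, averaged 7.77 ± 0.490 CPM with FL-NfL and 9.37 ± 0.574 CPM with vehicle (SD, n = 4 each), a log2 change of −0.27 ± 0.09 (adjusted p = 0.0521, and 0.0311 with the block). Ndufaf1, Ndufaf2, Ndufaf4 and Ndufaf8 were not called, at changes of 0.11, 0.20, 0.37 and 0.20, and Ndufaf4 was called with the block (0.0064).

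Complex II oxidises succinate and is part of the citric acid cycle as well. It had 2 of 4 subunits higher, against 14.0% of all tested genes. Sdhb (ENSMUSG00000009863, chromosome 4, 140961203 to 140979193), its iron-sulfur subunit, had 138, 136, 143 and 125 CPM in FL-NfL libraries, 84.4, 117, 109 and 108 CPM in CC-NfL libraries and 89.6, 73.4, 91.7 and 69.2 CPM in Vehicle libraries. All FL-NfL libraries lay above all others, with a log2 change against vehicle of 0.74 ± 0.11 (edgeR adjusted p = 0.00141). The membrane anchor Sdhc rose by 0.36 ± 0.08 (adjusted p = 0.00701). Its partner Sdhd had 134, 125, 158 and 134 CPM in FL-NfL libraries and 129, 104, 131 and 102 CPM in Vehicle libraries, which overlapped, with a change of 0.24 ± 0.10 (adjusted p = 0.0963, and 0.0181 with the block). Sdha, the flavoprotein that binds succinate, had 349.9, 307, 329.6 and 308 CPM in FL-NfL libraries and 288, 269, 308 and 264 CPM in Vehicle libraries. Only FL-NfL 2 lay below a Vehicle library (replicate 3), at a change of 0.20 ± 0.07 (adjusted p = 0.0652, and 0.027 with the block). Per kb of transcript, Sdhb stood at 119 ± 6.58 CPM with FL-NfL and 70.9 ± 9.91 CPM with vehicle, beside 112 ± 7.01 and 97.4 ± 6.88 CPM for Sdha (SD, n = 4).

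Complex III, which passes electrons on to cytochrome c, had 5 of 9 tested nuclear subunits higher, against 14.0% of all tested genes. Uqcrq, a small subunit next to cytochrome b, had 72.2, 66.6, 67.6 and 59.9 CPM in FL-NfL libraries, 40.9, 55.9, 40.6 and 57.9 CPM in CC-NfL libraries and 41.6, 33.3, 45.5 and 32.4 CPM in Vehicle libraries. The FL-NfL libraries were the highest, and the change against vehicle was 0.80 ± 0.14 (edgeR adjusted p = 0.00288). Cyc1, the cytochrome c1 that hands the electrons over, averaged 90.2 ± 11.4 CPM with FL-NfL and 56.8 ± 5.18 CPM with vehicle (SD, n = 4 each), a log2 rise of 0.67 ± 0.12 (adjusted p = 0.00281). The small subunit Uqcr10 rose by 0.47 ± 0.09 (adjusted p = 0.00484) and the core protein Uqcrc1 by 0.33 ± 0.08 (adjusted p = 0.0145). The second core protein, Uqcrc2, rose by 0.21 ± 0.07 (adjusted p = 0.0432), the smallest rise called in any complex. Named after their values were seen, the Rieske iron-sulfur protein Uqcrfs1 stood at 77.6 ± 8.39 CPM with FL-NfL and 78.9 ± 8.85 CPM with vehicle, a change of −0.02 ± 0.11 (adjusted p = 0.887), and the hinge protein Uqcrh at 51.3 ± 7.21 CPM and 52.0 ± 10.00 CPM, a change of −0.02 ± 0.15 (adjusted p = 0.937).

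Complex IV, cytochrome c oxidase, had 8 of 14 tested nuclear genes higher, against 14.0% of all tested genes. Cox6a1 (ENSMUSG00000041697, chromosome 5, 115345642 to 115348981), the widely expressed form of subunit VIa, had 85.1, 86.2, 73.1 and 78.7 CPM in FL-NfL libraries, 60.3, 74.6, 59.8 and 64.3 CPM in CC-NfL libraries and 54.8, 48.2, 57.6 and 52.3 CPM in Vehicle libraries. Both NfL groups lay wholly above vehicle, and the change with FL-NfL was 0.60 ± 0.09 (edgeR adjusted p = 0.00113). Cox6a2, its heart and muscle form, was far lower, with 2.58, 3.78, 2.55 and 3.42 CPM in FL-NfL libraries, 1.18, 4.29, 1.61 and 3.34 CPM in CC-NfL libraries and 1.69, 1.17, 1.37 and 0.562 CPM in Vehicle libraries. It had the largest log2 change of the 96 tested genes, 1.36 ± 0.41 (adjusted p = 0.0326), which was lost without FL-NfL 2 (0.0837), FL-NfL 4 (0.0713), Vehicle 2 (0.0710) or Vehicle 4 (0.0829), and 10.3% of its exon bases overlap a gene on the other strand. Cox7b, a small subunit encoded on the X chromosome, rose by 0.55 ± 0.09 (adjusted p = 0.0024) and Cox6b1, a subunit at the cytochrome c side, by 0.41 ± 0.07 (adjusted p = 0.00261). Cox5a, which binds a regulator of the enzyme and is named after its values were seen, had 39.1, 35.6, 38.6 and 36.6 CPM in FL-NfL libraries and 19.1, 15.5, 28.2 and 18.02 CPM in Vehicle libraries. That was a rise of 0.89 ± 0.16 (adjusted p = 0.00333), in a gene with 32.0% of its 50-base stretches found in other genes. Cox6c rose by 0.33, and Cox5b, Cox8a and Cox7c were not called, at 0.42, 0.25 and −0.35, Cox5b being called with the block (0.0237). In Cox7c, 53.0% of the 50-base stretches occur in other genes.

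Isoforms and relatives of complex IV subunits differed in level and change. Cox7a2, the widely expressed form of subunit VIIa, had 78.4, 76.8, 72.6 and 69.3 CPM in FL-NfL libraries and 54.7, 50.2, 61.6 and 45.9 CPM in Vehicle libraries, a rise of 0.48 ± 0.09 (edgeR adjusted p = 0.00284). Its muscle form Cox7a1 had 0.883, 0.442, 0.837 and 0.332 CPM in FL-NfL libraries and 0.521, 0.586, 0.964 and 0.519 CPM in Vehicle libraries, a change of −0.04 ± 0.38 (adjusted p = 0.941). Cox7a2l, a relative of Cox7a2, had 78.7, 69.0, 98.5 and 68.5 CPM in FL-NfL libraries and 108, 80.8, 106 and 87.4 CPM in Vehicle libraries. The FL-NfL value was the lower one in each batch although the groups overlapped, and the change of −0.28 ± 0.15 (adjusted p = 0.188) had an adjusted p of 0.00349 with the block. Cox4i1, the main form of subunit IV, averaged 329 ± 28.3 CPM with FL-NfL and 292 ± 48.6 CPM with vehicle (SD, n = 4 each), a change of 0.17 ± 0.11 (adjusted p = 0.274), while its lung form Cox4i2 had at most 0.1003 CPM in any library. Ndufa4 rose by 0.30 ± 0.09 (adjusted p = 0.0347), a call lost without FL-NfL 1 (0.0818), FL-NfL 2 (0.0887), FL-NfL 4 (0.0952), Vehicle 2 (0.0683), Vehicle 3 (0.0659) or Vehicle 4 (0.0882), and its hypoxia-linked relative Ndufa4l2 had at most 0.0838 CPM.

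Complex V, the ATP synthase, had 11 of 15 tested nuclear genes higher, against 14.0% of all tested genes. Atp5o (ENSMUSG00000022956, chromosome 16, 91925214 to 91931687), the stalk subunit that holds the catalytic head, had the smallest adjusted p of all 96 tested genes. It stood at 84.5, 84.9, 87.6 and 84.0 CPM in FL-NfL libraries, 56.7, 68.5, 63.5 and 65.3 CPM in CC-NfL libraries and 56.4, 42.8, 58.1 and 41.6 CPM in Vehicle libraries. The FL-NfL libraries differed little among themselves and lay above all others, with a change of 0.78 ± 0.11 against vehicle (edgeR adjusted p = 0.000947). The level of Atp5o is uncertain, since 50.3% of its 50-base stretches occur in 3 other annotated genes. Atp5b (ENSMUSG00000025393, chromosome 10, 128083273 to 128090391), the catalytic beta subunit, had 778, 792, 737 and 715 CPM in FL-NfL libraries, 539, 646, 591 and 631 CPM in CC-NfL libraries and 573, 506, 547 and 503 CPM in Vehicle libraries. Its FL-NfL libraries too lay above all others, with a change of 0.51 ± 0.08 against vehicle (adjusted p = 0.00151). Atp5f1, of the peripheral stalk, rose by 0.51 ± 0.09 (adjusted p = 0.00256), though 38.7% of its 50-base stretches occur in 4 other genes. The alpha and gamma subunits of the head, Atp5a1 and Atp5c1, rose by 0.28 and 0.30. The small subunits Atp5e, Atp5h, Atp5mpl, Atp5j2 and Atp5j rose by 0.28 to 0.41. In Atp5h, 47.9% of the 50-base stretches occur in 18 other genes. Atp5d and Atp5k were not called, at 0.25 and 0.38, and were with the block (0.0408 and 0.0292). Atp5g1, Atp5g2 and Atp5g3 encode the same membrane-ring subunit with different import signals. Atp5g3 rose by 0.39 ± 0.07 (adjusted p = 0.00402), at 155 ± 11.8 CPM with FL-NfL and 119 ± 9.18 CPM with vehicle, and Atp5g1 changed by 0.01 ± 0.22 (adjusted p = 0.987) at 2.49 ± 0.827 CPM and 2.49 ± 0.194 CPM. Atp5g2 had 0 counts in 11 libraries, and 87.4% of its 50-base stretches occur in other genes. For Atp5l, also left out for low counts, 84.8% do. Atp5s, a relative of the synthase genes that is no core subunit, changed by 0.11 ± 0.13 (adjusted p = 0.531).

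**Figure D4:**
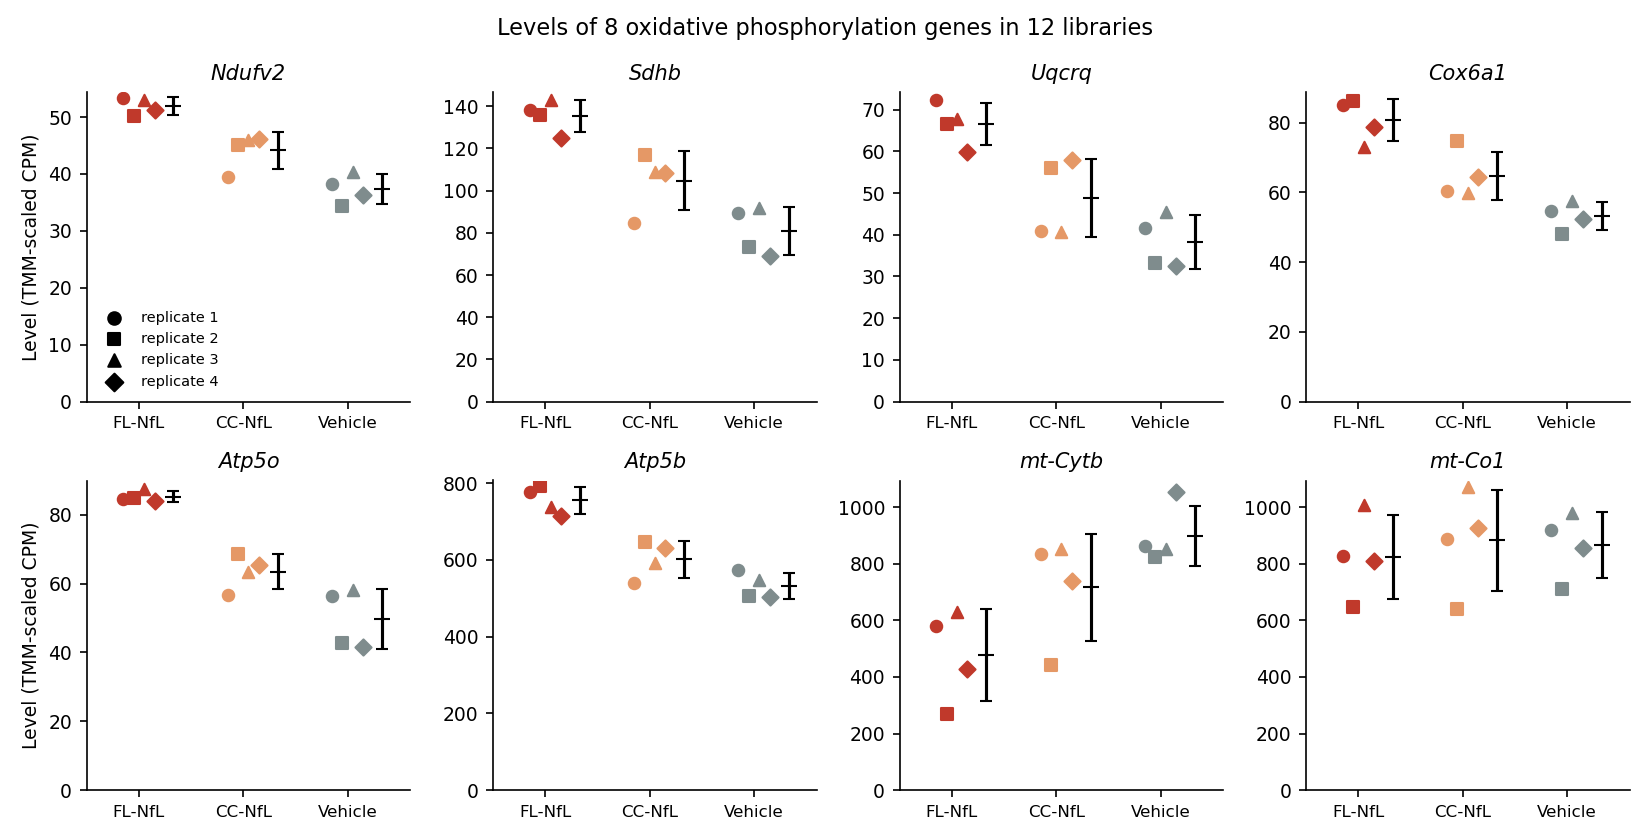
TMM-scaled CPM of 8 genes in the 12 libraries, with symbols for the replicate number and black bars for the mean and SD of 4 libraries. In the 6 nuclear genes every FL-NfL library lies above every Vehicle library, in mt-Cytb every one lies below, and in mt-Co1 the groups overlap.

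Of the mitochondrial-genome genes, mt-Cytb, which encodes the cytochrome b of complex III, changed most. It had 581, 271, 629 and 429.6 CPM in FL-NfL libraries, 836, 443, 851 and 738 CPM in CC-NfL libraries and 861, 825, 853 and 1055 CPM in Vehicle libraries. All FL-NfL libraries lay below all Vehicle libraries, and the change was −0.91 ± 0.25 (edgeR adjusted p = 0.0217). Of its 9 tested nuclear-encoded partners in complex III, 0 were called lower, against 10.9% of all tested genes. mt-Nd2, of complex I, had 273, 189, 289 and 257 CPM in FL-NfL libraries and 315, 334, 337 and 428 CPM in Vehicle libraries, a change without overlap of −0.49 ± 0.16 (adjusted p = 0.0471). The complex IV genes mt-Co2 and mt-Co3 were lower by log2 changes of −0.75 ± 0.24 (adjusted p = 0.041) and −0.79 ± 0.26 (adjusted p = 0.0418). They stood at only 1.10 ± 0.327 CPM with FL-NfL and 1.86 ± 0.388 CPM with vehicle, and at 1.78 ± 0.527 CPM and 3.08 ± 0.485 CPM (SD, n = 4 each), and both share nearly all of their sequence with nuclear copies. In mt-Nd4, mt-Nd5 and mt-Nd6, of complex I, the changes were −0.62 ± 0.21, −0.53 ± 0.22 and −0.53 ± 0.22, with adjusted p of 0.0517, 0.104 and 0.0916, and of 0.00254, 0.00453 and 0.00318 with the block. mt-Nd6 is the only protein gene on its strand of the mitochondrial genome.

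The other mitochondrial-genome genes were not called. mt-Co1, the catalytic core of complex IV, had 828, 649, 1009 and 809 CPM in FL-NfL libraries, 888, 642, 1073 and 927 CPM in CC-NfL libraries and 918, 709.8, 980.5 and 854 CPM in Vehicle libraries. These groups overlapped widely, at a change of −0.07 ± 0.17 (edgeR adjusted p = 0.775). mt-Nd1 had 660.0, 420.5, 668 and 587 CPM in FL-NfL libraries and 639, 583, 665 and 769.5 CPM in Vehicle libraries, also with overlap, at a change of −0.19 ± 0.17 (adjusted p = 0.431). mt-Atp6, of complex V, had 0.807 ± 0.449 CPM with FL-NfL and 1.36 ± 0.323 CPM with vehicle (SD, n = 4 each), a change of −0.75 ± 0.38 (adjusted p = 0.169). The sum over this genome had an SD of 726 CPM around 3134 CPM in FL-NfL libraries, against 260.3 CPM around 6332 CPM for the nuclear sum. FL-NfL 2 was the lowest FL-NfL library in 9 of the 10 tested genes of this genome, all but mt-Co2.

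The mitochondrial-genome calls changed when single libraries were left out. In place of 4 lower genes there were 0 without FL-NfL 4 or Vehicle 4, 1 without FL-NfL 2, CC-NfL 4 or Vehicle 1, 2 without Vehicle 3 and 7 without FL-NfL 3. Over all genes, 1594 were called lower in the main fit, 1013 without FL-NfL 4 and 998 without Vehicle 4. The number was 992 without FL-NfL 2, 1409 without CC-NfL 4, 1169 without Vehicle 1, 1735 without Vehicle 3 and 1405 without FL-NfL 3. mt-Cytb had an adjusted p of 0.0601 without FL-NfL 4 and 0.0606 without Vehicle 4. The other 3 were each lost in more fits, mt-Co3 in 6, mt-Co2 in 7 and mt-Nd2 in 10 of 12. Markers of astrocytes and neurons had median changes of −0.63 and −1.21. Called lower were 1 of 9 and 2 of 7 tested markers, against 10.9% of all genes. With the block these were 7 of 9 and 7 of 7, against 22.4%. Of 8 tested oligodendrocyte lineage markers, 1 was higher, against 14.0% of all genes, and 0 lower. With the block 1 was higher, against 21.4%, and 5 lower, against 22.4%. Their part in the result was not tested.

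The next comparison asked the same of coiled-coil NfL. No nuclear or mitochondrial-genome gene was called against vehicle by edgeR or DESeq2, and 0% of all genes were called in either direction by edgeR. DESeq2 called 21 higher and 6 lower over all genes. At an unadjusted p under 0.05 edgeR had 29 nuclear genes higher and 1 lower, and 675 higher and 407 lower over all genes. The nuclear median was 0.16, with 79 of 86 changes above 0, and the mitochondrial-genome median was −0.19, with 1 of 10 above 0, beside 0.00 over all genes. For 7 nuclear genes all 4 CC-NfL libraries lay above all Vehicle libraries, against 1.42% of all genes, and for 1 (Ndufaf7) all below, against 1.31%. The 7 were Atp5c1, Atp5h, Cox6a1, Cox6b1, Ndufaf5, Ndufb5 and Ndufs5. Cox6a1 changed by 0.28 ± 0.09 (adjusted p = 0.646), Ndufaf5 by 0.55 ± 0.13 (adjusted p = 0.621) and Sdhb by 0.37 ± 0.11 (adjusted p = 0.646). The comparison shares its Vehicle libraries with that of FL-NfL.

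Set directly against CC-NfL, FL-NfL had 1 nuclear gene higher, Atp5b, against 1.38% of all genes, and 0 lower, against 1.34%. Its change was 0.33 ± 0.08 (edgeR adjusted p = 0.0496), just under the threshold, and all 4 FL-NfL libraries lay above all 4 CC-NfL libraries. Atp5b stayed under the threshold without CC-NfL 2 and crossed it without any other single library, with adjusted p of 0.0520 to 0.141. With the block, 16 nuclear genes were higher, against 8.99% of all genes, 1 was lower (Cox7a2l), and mt-Cytb and mt-Co3 were lower, against 10.1%. DESeq2 called 13 nuclear genes higher and 0 lower, beside 707 higher and 578 lower over all genes. For 27 nuclear genes all FL-NfL libraries lay above all CC-NfL libraries, against 7.46% of all genes, and for 0 all below, against 5.02%. The nuclear median was 0.17 and the mitochondrial-genome one −0.35. mt-Cytb changed by −0.59 ± 0.25 (adjusted p = 0.203, and 0.0276 with the block), with overlap of the groups. Atp5o had a change of 0.43 ± 0.11 (adjusted p = 0.0568) and passed the threshold with upper-quartile scaling and with DESeq2 size factors. With the block, the adjusted p was 0.0175 for Atp5o, 0.0221 for Ndufb9, 0.0276 for Cox6a1, 0.0293 for Atp5f1, 0.03 for Cox7b, 0.0301 for Ndufaf6, 0.0308 for Cyc1, 0.0331 for Sdhb, 0.0333 for Ndufv2 and 0.0433 for Atp5g3, all higher with FL-NfL. It was 0.0432 for Cox7a2l and 0.0249 for mt-Co3, both lower. No astrocyte, neuronal or oligodendrocyte lineage marker was called in this comparison, and with the block 4 of 9, 3 of 7 and 2 of 8 were lower, and their part in the result was not tested.

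Promoters of the nuclear genes were searched, whether the genes were called or not. Nuclear respiratory factor 1 (NRF1), ETS factors such as GABP, and YY1 are textbook regulators of respiratory chain genes. RefSeq promoters (GRCm38.p6, 250 bases before to 50 after the start) were matched for 76 of the 94 nuclear genes, and 5 short motifs were searched on both strands, counted whether or not they overlapped each other. The NRF1 core GCATGCGC was in 12 of 76 (15.8%), against 2.81% of 27025 promoters. The YY1 core AAGATGGC was in 10 (13.2%), against 2.88%, the ETS core CCGGAAG in 17 (22.4%), against 9.12%, the SP core GGGCGG in 35 (46.1%), against 35.9%, and the estrogen-related receptor core AAGGTCA in 8 (10.5%), against 4.66%. Of the 40 matched genes that rose with FL-NfL, 6 held the NRF1 core, 7 the YY1 core, 8 the ETS core, 18 the SP core and 3 the estrogen-related receptor core. All but the YY1 core were less frequent among these 40 genes than among all 76 matched genes. A match is a run of letters and no evidence of binding, and a link of motifs to the rises was not tested. The 250 bases before the start are given for the 3 risen genes with the smallest p that hold the NRF1 core there, in capitals, and for Atp5o, which holds none. The core begins 54 bases before the start in Sdhb, and overlapping matches on both strands begin 162 and 160 bases before it in Cox6a1 and 60 and 58 in Ndufa11. The regions are chr5:115348959-115349208 for Cox6a1 (minus strand), chr4:140961021-140961270 for Sdhb (plus strand), chr17:56717512-56717761 for Ndufa11 (plus strand) and chr16:91931631-91931880 for Atp5o (minus strand).
Cox6a1: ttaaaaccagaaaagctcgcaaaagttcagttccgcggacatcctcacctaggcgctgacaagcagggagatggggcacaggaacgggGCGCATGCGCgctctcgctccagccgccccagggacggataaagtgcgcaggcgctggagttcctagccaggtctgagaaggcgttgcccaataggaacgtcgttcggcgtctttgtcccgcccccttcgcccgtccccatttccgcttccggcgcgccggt
Sdhb: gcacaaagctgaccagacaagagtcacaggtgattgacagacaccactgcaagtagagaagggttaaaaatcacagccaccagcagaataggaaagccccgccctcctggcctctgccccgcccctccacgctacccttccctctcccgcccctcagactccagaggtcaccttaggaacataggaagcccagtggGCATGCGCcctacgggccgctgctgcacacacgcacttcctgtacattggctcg
Ndufa11: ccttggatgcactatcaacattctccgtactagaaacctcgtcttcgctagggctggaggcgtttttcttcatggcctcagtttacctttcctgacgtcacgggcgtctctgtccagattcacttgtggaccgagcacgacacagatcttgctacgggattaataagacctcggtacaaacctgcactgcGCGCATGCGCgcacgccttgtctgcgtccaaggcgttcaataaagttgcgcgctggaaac
Atp5o: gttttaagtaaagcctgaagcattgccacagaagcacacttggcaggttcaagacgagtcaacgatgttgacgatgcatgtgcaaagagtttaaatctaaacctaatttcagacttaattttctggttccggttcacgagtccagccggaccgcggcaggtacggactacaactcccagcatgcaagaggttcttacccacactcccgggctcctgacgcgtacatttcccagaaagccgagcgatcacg
Ndufa11, an accessory subunit of the complex I membrane arm, rose by 0.57 ± 0.13 (edgeR adjusted p = 0.00879).

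Genes that build and feed the respiratory chain were counted in 6 lists, to be read against the 14.0% of all genes called higher with FL-NfL and the 10.9% called lower (21.4% and 22.4% with the block). Of 41 other assembly factors 12 rose and 0 fell (18 and 1 with the block), at a median of 0.21. Coa5, needed for complex IV, rose by 1.00 ± 0.16 (edgeR adjusted p = 0.00188) and Uqcc2, needed for complex III, by 0.85 ± 0.14 (adjusted p = 0.00205). Of 25 genes of electron carriers and coupling, 7 rose and 0 fell (9 and 1 with the block), at a median of 0.15. Among them were the ADP/ATP carrier Slc25a5 (0.91 ± 0.12, adjusted p = 0.00074) and Coq7 of ubiquinone synthesis (0.62 ± 0.10, adjusted p = 0.00181). The citric acid cycle and pyruvate entry had 10 of 19 genes higher and 0 lower (11 and 0 with the block), at a median of 0.22. Malate dehydrogenase Mdh2 averaged 227 ± 13.8 CPM with FL-NfL and 151 ± 11.9 CPM with vehicle (SD, n = 4 each; 0.58 ± 0.08, adjusted p = 0.000908), and citrate synthase Cs 256 ± 10.7 CPM and 184 ± 16.6 CPM (0.48 ± 0.07, adjusted p = 0.00151). Mitochondrial import and membrane genes had 14 of 23 higher and 1 lower (the same counts with the block), at a median of 0.37. The translocase subunit Timm17a rose by 0.56 ± 0.08 (adjusted p = 0.000887), Chchd3, of the cristae organising complex, rose by 0.44 ± 0.07 (adjusted p = 0.00157), and the import receptor Tomm20 was lower, with a change of −0.41 ± 0.13 (adjusted p = 0.0349).

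The genes that copy mitochondrial DNA and handle its RNA had 5 of 28 higher and 1 lower (7 and 2 with the block), at a median of 0.18. Their share called higher was near that of all genes, 14.0% (21.4% with the block). Slirp, which protects mitochondrial mRNA, rose by 0.72 ± 0.13 (edgeR adjusted p = 0.00339), though 97.8% of its exon bases overlap genes of the other strand and the strand setting of the counting is not given in the sources used here. Fastkd3, an RNA-binding protein of mitochondria, rose by 0.62 ± 0.16 (adjusted p = 0.0135). Polg, the polymerase that replicates mitochondrial DNA, had 70.0, 53.6, 54.2 and 61.7 CPM in FL-NfL libraries, 85.9, 69.5, 71.4 and 68.0 CPM in CC-NfL libraries and 88.5, 85.1, 77.5 and 85.8 CPM in Vehicle libraries. It was lower with a change of −0.49 ± 0.10 (adjusted p = 0.00514), with no overlap between FL-NfL and vehicle. Named after their values were seen, Tfam, which packages mitochondrial DNA, changed by 0.02 ± 0.08 (adjusted p = 0.879) and the mitochondrial RNA polymerase Polrmt by 0.20 ± 0.11 (adjusted p = 0.199).

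Regulators of mitochondrial genes had 3 of 13 higher and 1 lower (4 and 2 with the block), at a median of −0.02, beside 14.0% of all genes higher and 10.9% lower (21.4% and 22.4% with the block). Pprc1, a coactivator related to PGC-1, had 100.3, 132, 79.6 and 116.1 CPM in FL-NfL libraries and 66.5, 71.7, 62.8 and 63.8 CPM in Vehicle libraries, a rise of 0.69 ± 0.16 (edgeR adjusted p = 0.00845). Esrra, the estrogen-related receptor alpha, rose by 0.50 ± 0.11 (adjusted p = 0.00845). Gabpa, the DNA-binding part of GABP, was lower with a change of −0.26 ± 0.07 (adjusted p = 0.0214), a call lost without FL-NfL 2 (0.0598), FL-NfL 4 (0.0555), Vehicle 2 (0.0502) or Vehicle 4 (0.0607). Nrf1 itself, named after its values were seen, stood at 28.7 ± 2.27 CPM with FL-NfL and 30.9 ± 1.61 CPM with vehicle (SD, n = 4 each), a change of −0.11 ± 0.07 (adjusted p = 0.313). Tomm20 was likewise lost without FL-NfL 2 (0.104), FL-NfL 3 (0.0833), FL-NfL 4 (0.0937), Vehicle 1 (0.0921) or Vehicle 4 (0.0846). With CC-NfL no gene of the 6 lists was called. The smallest p of each list then belonged to Coa4 (0.32, adjusted p = 0.653), Dhodh (0.37, 0.646), Cs (0.22, 0.652), Slirp (0.34, 0.668), Gabpa (−0.10, 0.796) and Chchd3 (0.17, 0.674), each given as log2 change and adjusted p. Between FL-NfL and CC-NfL, 2 carrier genes, 2 citric acid cycle genes and 1 import gene were called, all higher. They were Timm17a (0.39 ± 0.08, edgeR adjusted p = 0.0244), Mdh2 (0.39 ± 0.08, 0.0311), Coq7 (0.49 ± 0.10, 0.0321), Dlst, of the oxoglutarate dehydrogenase complex (0.29 ± 0.06, 0.0328), and Slc25a5 (0.51 ± 0.12, 0.0451), each with its log2 change, SE and adjusted p. With the block, against 8.99% of all genes higher and 10.1% lower, 4 of 25 carrier genes were higher and 1 lower, 7 of 19 citric acid cycle genes higher and 0 lower, 7 of 23 import genes higher and 1 lower, 7 of 41 assembly factors higher and 1 lower, 3 of 28 genes of mitochondrial DNA and RNA higher and 1 lower, and 3 of 13 regulators higher and 0 lower.

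**Figure D5:**
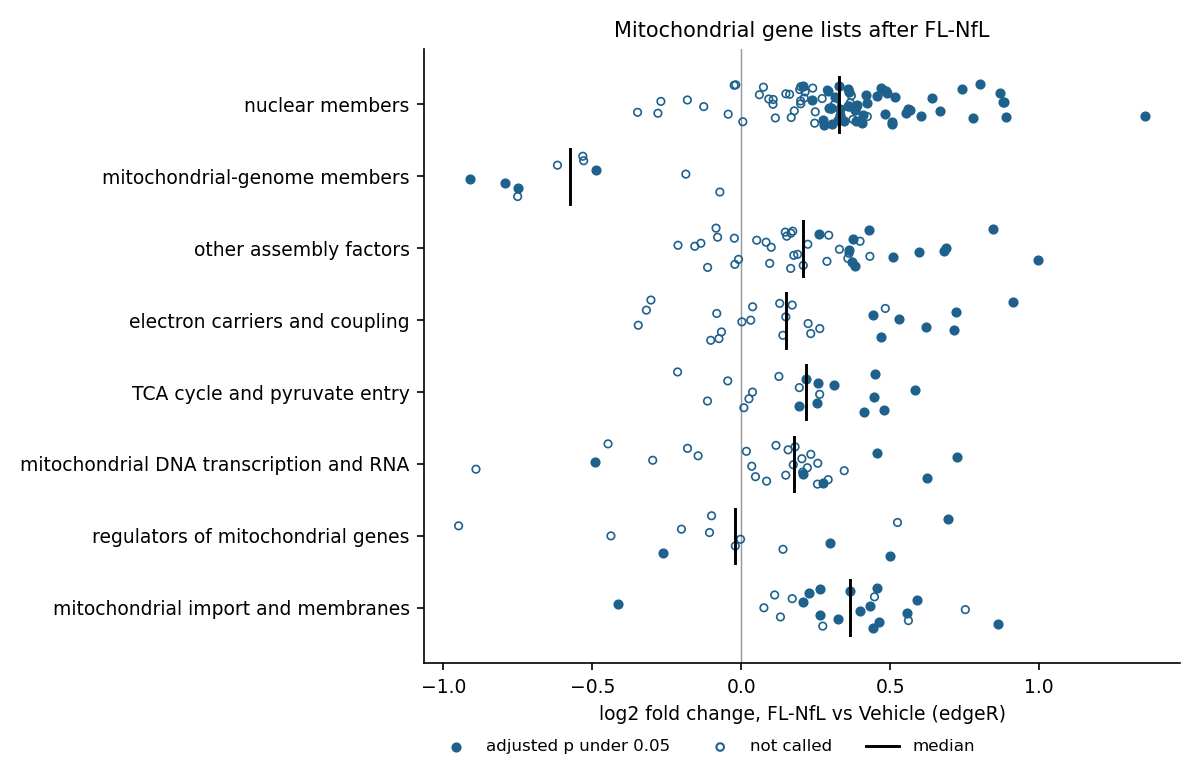
Log2 fold change with FL-NfL against vehicle of the nuclear and mitochondrial-genome oxidative phosphorylation genes and of 6 other mitochondrial gene lists, with filled points for an adjusted p under 0.05 and a black line at the median. The medians of import and membrane genes (0.37) and of nuclear oxidative phosphorylation genes (0.33) are the highest, and the mitochondrial-genome genes (−0.57) are the lowest.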

How the data were processed

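Counts per gene of 12 libraries were deposited by the authors as 1 table of raw counts. Per the labels' protocols, a stranded mRNA kit and single 50-base reads were used, and per the submitters' processing notes GSNAP and GRCm38. The sources used here give no counting tool, annotation or rule for strand and shared reads, so genes with near-identical or overlapping copies are uncertain. Gene symbols came from GENCODE M21 (99.7% of identifiers matched).

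From the deposited counts, edgeR 4.0.16 (filterByExpr, TMM, quasi-likelihood test over all 12 libraries and 3 groups, 9 residual degrees of freedom) tested 14687 genes holding 99.93% of counts. The method was tested on simulated data. DESeq2 1.42.0, other scalings, no filter, GC and length offsets, 2-group fits and leaving out each library were tried. The 50-base stretches were compared with annotated transcripts only.

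Libraries with the same replicate number, the labelled batch, deviated together (r of 0.31 to 0.73 in 12 of 12 pairs, against −0.46 to 0.44 in 36 other pairs), so the number pairs the libraries, and a fit with it as a block (6 residual degrees of freedom) was an alternative.

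Genes, lists and tests were chosen with earlier results of these data known. Named genes were all mitochondrial-genome genes, Sdha to Sdhd, Cyc1, the isoform sets, up to 4 called genes per complex and direction of change by p, and up to 2 per list. Values of 1 gene are not reported here.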

Additional observations from a re-analysis of the deposited data

Results flagged for a closer look

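Of 129 sets of 4 libraries checked for a library far from the other 3 (Dixon's ratio of the gap to the range), 5 were named, and chance names about 1 in 20. FL-NfL 2 had 74.5 CPM of Ndufb8, CC-NfL 1 had 80.1 CPM of Ndufa9, and Vehicle 3 had 0.964 CPM of Cox7a1. Vehicle 4 had 1055 CPM of mt-Cytb and 103.2 mitochondrial-genome counts per 100 nuclear counts, and without this library the fall of mt-Cytb with FL-NfL had an edgeR adjusted p of 0.0606.

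The change of Atp5b differed between the NfL forms, by 0.33 (log2, FL-NfL against CC-NfL) in edgeR's test of that difference. The adjusted p was 0.0496, just under the threshold. In most fits that left out a single library the adjusted p of Atp5b was above the threshold, at up to 0.141. Of 86 tested nuclear genes only Atp5b was called higher (1.16%), against 1.38% of all tested genes.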

How the results depend on the processing

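Over 21 alternative settings no median of the nuclear or mitochondrial-genome genes and no named gene that was called changed sign. The median over all tested genes lay near 0 and did change sign. With FL-NfL against vehicle it went from −0.0207 to 0.0369 with GC and length trends removed. With FL-NfL against vehicle, 51 nuclear genes were called higher, 36 to 55 on leaving out 1 library, 36 with GC and length trends removed (35 of them among the 51), 42 with upper-quartile scaling and 43 with no filter on low counts. Leaving out FL-NfL 4 and Vehicle 2 together, a setting chosen after seeing the data, gave 26. Over all genes, 2062 were called higher in the main design and 1392 to 2349 on leaving out 1 library. With GC and length trends removed the number was 2302, with upper-quartile scaling 1691, with no filter 1758, and without FL-NfL 4 and Vehicle 2 together 793. Nuclear genes called lower numbered 0 in the main design, 1 with DESeq2, its size factors or upper-quartile scaling, 2 with the replicate block or with GC and length trends removed, and 6 with both of these. Mitochondrial-genome genes called lower numbered 4, but 1 with no filter on low counts, 7 with the replicate block, 9 with the block and GC and length trends removed, 0 without FL-NfL 4 and Vehicle 2 together, and 0 to 7 on leaving out 1 library. Over all genes, 1594 were called lower in the main design, 1922 with DESeq2, 1672 with its size factors and 2003 with upper-quartile scaling. With the block the number was 3284, with trends removed 1058, with both 2609, and with no filter 1191. It was 544 without FL-NfL 4 and Vehicle 2 together and 992 to 1735 on leaving out 1 library.

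Between FL-NfL and CC-NfL, 1 nuclear gene was called higher, but 13 with DESeq2, 2 with its size factors, 0 with no filter, 16 with the replicate block, 23 with the block and trends removed, 0 without FL-NfL 4 and Vehicle 2 together, and 0 to 4 on leaving out 1 library. Over all genes 202 were called higher, 707 with DESeq2, 219 with its size factors, 169 with no filter and 1321 with the replicate block. With the block and trends removed 2325 were, without FL-NfL 4 and Vehicle 2 together 5, and on leaving out 1 library 14 to 324. The replicate block called 1 nuclear gene lower, and 3 once trends were removed too, and 2 mitochondrial-genome genes lower in either case. Beyond the calls given above with and without it, the block changed no call of a gene of complexes I to V named by rule. The cause of these shifts was not tested. The genes mt-Nd3, mt-Nd4l and mt-Atp8 had too few counts for any statement.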
